A study of Mus musculus with 16 samples.

Results

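The LPS response of the RNA that an anti-CPEB4 antibody recovers from wild-type (WT) macrophages was described gene by gene, and the change of the immunoprecipitate (RIP) was set beside the change of the same mRNA in the lysate (Input). The genes were all symbols of the deposited 3′-UTR read counts, each represented by the 3′-UTR region with the most reads over the 8 count columns. There were 14925 genes, of which 7661 had at least 20 reads summed over the 2 WT RIP libraries, 5477 had from 1 to 19 reads and 1787 had none. The genes with at least 20 reads in both the RIP pair and the Input pair numbered 6386, and RIP and Input changes were compared over these.

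CPEB4 belongs to the cytoplasmic polyadenylation element binding proteins, which recognise short U-rich elements (CPEs) in 3′-UTRs and recruit factors that lengthen or shorten poly(A) tails and so set stability and translation. Many inflammatory mRNAs carry AU-rich elements built of AUUUA motifs, through which proteins such as tristetraprolin (encoded by Zfp36) drive their decay. Lipopolysaccharide (LPS), a component of the outer membrane of Gram-negative bacteria, activates macrophages through TLR4, and the transcriptional response contains both effectors and the inhibitors that later switch it off. An antibody recovers more of an mRNA when the cell holds more of it, and the Input beside each RIP gives that mRNA level.

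The cells were bone marrow-derived macrophages (BMDMs) of adult C57BL/6J 129 mice, differentiated with L-cell conditioned medium as the source of M-CSF. The WT culture, numbered 76, and the CPEB4 KO culture, numbered 73, were each left untreated or given LPS at 10 ng/ml for 9 h. RNA bound by the anti-CPEB4 antibody after formaldehyde crosslinking and RNA of the lysate were sequenced, and the labels describe rRNA depletion for the Inputs alone. Every condition is 1 library, whose lanes 7 and 8 of a flow cell were summed, so the differences below compare libraries, carry no p-value and have no replicate check.

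The markers of macrophages fitted the label of the cells. All 8 of them passed the read minimum in the RIP and in the Input pair. No marker of T cells, B cells, neutrophils, dendritic cells, fibroblasts or erythroid cells did. The data held only part of these markers. In the same order they were 5 of 6, 3 of 5, 1 of 7, 4 of 5, 3 of 5 and 2 of 5. The 4 WT libraries held from 929054 to 2492300 3′-UTR reads. These came to 48.9% of the library total in the untreated WT RIP and to 70.1% in the LPS WT RIP. In the WT Inputs they came to 46.8% and 49.1%. Scaling to library totals in place of 3′-UTR reads shifts every RIP change by the gap between the RIP libraries, and the calls moved with it, as given below. The cause of this gap was not tested. Changes are log2 ratios of LPS over untreated with each library scaled to its 3′-UTR reads and 1 read added. A gene is said to have risen or fallen when its log2 change was past 1 in size and its 95% counting interval excluded 0. Lagging and exceeding mean that the RIP change minus the Input change was under -1 or over 1, with its interval on that side of 0. Intervals cover counting error only.

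Some of the genes described below are shown first with a window of 30 bases of their 3′-UTR, because their motifs are the ones that AU-rich element binding proteins and CPEB proteins read. The windows are DNA letters of the transcript strand, 5′ to 3′, with the build, position and strand before each, and the capitals mark every match of the motif searched. The core motif of AU-rich elements, ATTTA, was found in 65.2% of the 14925 regions. The CPE hexamer searched, with T for U and on the same strand, was found in 52.0% of them, so both are common. The first 5 windows belong to genes whose RIP lagged the Input, the next 3 to genes called neither lagging nor exceeding, all with ATTTA in capitals.
Nfkbia, mm10 chr12:55489608-55489637, minus strand: aggaccacgttttATTTAttgtgcttttga
Socs3, mm10 chr11:117966139-117966168, minus strand: actttgcacatatATTTAtATTTAtactca
Ccl2, mm10 chr11:82037205-82037234, plus strand: taatattaaacttATTTAacttattgatgt
Ccl7, mm10 chr11:82047254-82047283, plus strand: tattaatatttttATTTAattagccatgta
Cxcl2, mm10 chr5:90905331-90905360, plus strand: tATTTAtctatgtATTTATTTATTTAttaa
Il1b, mm10 chr2:129364808-129364837, minus strand: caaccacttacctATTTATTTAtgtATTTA
Ptgs2, mm10 chr1:150105819-150105848, plus strand: ATTTAATTTAattATTTAatATTTAtactg
Acod1, mm10 chr14:103055747-103055776, plus strand: tttctgaggaattATTTAttaactctggga
Over their whole regions Nfkbia and Ccl7 held 2 such motifs each, Socs3 and Il1b 4 each, Ccl2 and Acod1 1 each, Cxcl2 11 and Ptgs2 12.

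The CPE hexamer TTTTAT is shown in capitals for genes that rose strongly, did not change or fell strongly in the RIP.
Acod1, mm10 chr14:103056485-103056514, plus strand: aatgcttagcagTTTTATtgatgTTTTATt
Il1b, mm10 chr2:129364628-129364657, minus strand: atggatgagactTTTTATgaatgaagcacc
Cpeb4, mm10 chr11:31935130-31935159, plus strand: tgtattcaactgTTTTATtTTTTATatttt
St6gal1, mm10 chr16:23358815-23358844, plus strand: aggctggggctcTTTTATTTTATTTTATtg
Their regions held 2 (Acod1), 1 (Il1b), 11 (Cpeb4) and 5 (St6gal1) matches. The region of Ccl2 held none, which says only that these letters are not in it.

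After LPS the WT RIP of many genes was higher or lower than before. Of the 7661 genes, 905 rose (11.8%) and 1447 fell (18.9%), and the median change was -0.20. In the WT Input 936 of 6872 genes rose (13.6%) and 1024 fell (14.9%), with a median of -0.06. The split of the RIP calls depended on the scaling: 38.5% of them were rises on the 3′-UTR totals, against 69.9% on library totals, 56.3% with TMM and 53.5% with median-of-ratios factors. These scalings moved every RIP change alike, by 0.52, 0.28 and 0.24 upward, and every Input change by 0.07, 0.14 and 0.11, so small changes are best read against the median of all genes. An upward move can remove falls but no rises. All 905 rises thus remained under the 3 other scalings by construction, while 741, 980 and 1038 of the 1447 falls remained. Among the rises 153 genes had 3 or fewer reads in the untreated RIP, and among the falls 85 had 3 or fewer in the LPS RIP.

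**Figure D1:**
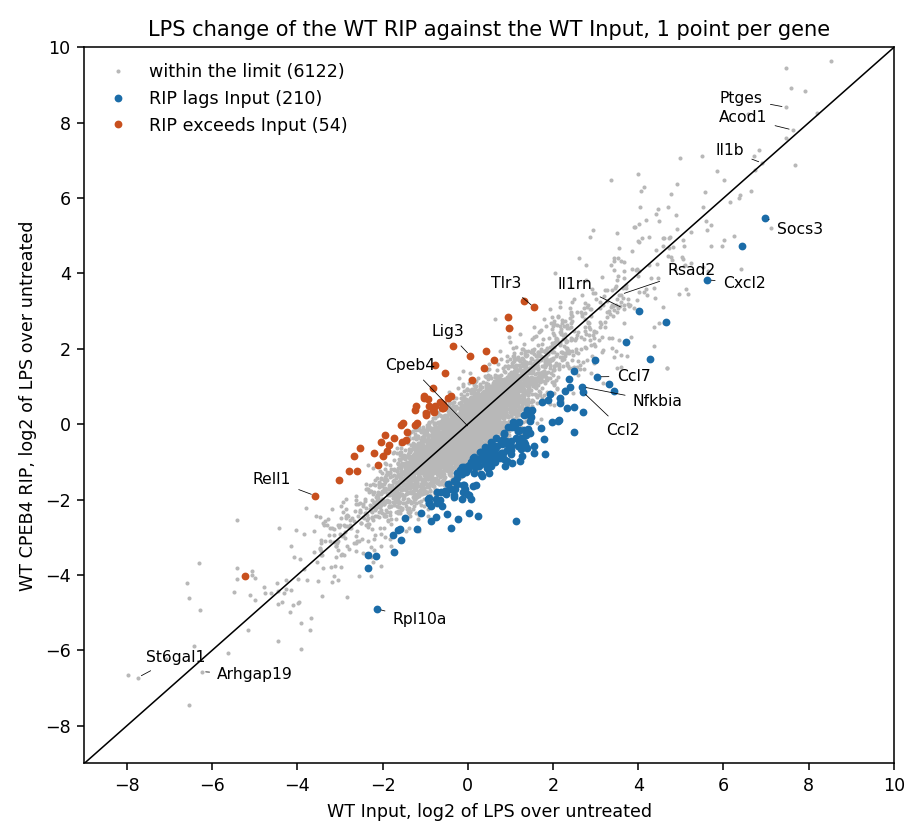
Log2 change of the WT CPEB4 RIP after LPS (vertical axis) against that of the WT Input (horizontal axis), 1 point for each of the 6386 genes with at least 20 reads in both pairs; the line marks equal change. Most points lie along the line, with 210 lagging genes (blue) below it and 54 exceeding genes (orange) above it.

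The mRNAs that rose most in the RIP encode enzymes, cytokines and transporters of the activated macrophage. Ptges, the terminal synthase of prostaglandin E2, went from 4 to 2545 RIP reads and from 8 to 3241 Input reads, changes of 8.41 (95% interval 7.15 to 9.68) and 7.46. Acod1, which makes itaconate, went from 4 to 1672 RIP reads and from 2 to 1213 Input reads (7.81, and 7.63 with an interval of 6.00 to 9.26). Il1b, the interleukin-1β precursor, went from 5 to 1092 RIP reads and from 3 to 983 Input reads (6.93, and 6.91 with an interval of 5.50 to 8.33). In these 3 genes the RIP and the Input rose by amounts that counting error does not separate, with differences of 0.95, 0.17 and 0.02.

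The arginine transporter Slc7a2 went from 22 to 3723 RIP reads and from 8 to 1955 Input reads (6.76 and 6.73). Slc7a11, the cystine and glutamate exchanger, went from 17 to 1980 RIP reads and from 3 to 819 Input reads (6.20, and 6.65 with an interval of 5.23 to 8.07). Both transporters thus rose in both assays, with differences of 0.02 and -0.45. With the Input pair of the KO culture in place of the WT Input these were -0.23 and 1.67 (0.60 to 2.74). The sign for Slc7a11 thus depended on the Input used. Further genes among the 10 largest rises with over 3 reads in each RIP library were the heat shock gene Hspa1b (6.17), the activation marker Cd69 (6.10), the transporter Slco3a1 (5.99) and Socs3 (5.46), of which Socs3 lagged its Input.

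Genes without a read in the untreated RIP allow a lower bound against 3 reads per library. Il1a, the interleukin-1α precursor, had 0 and 1185 RIP reads and 0 and 750 Input reads, which makes it at least 264-fold higher in the RIP and at least 122-fold higher in the Input. Il12b, the p40 subunit of IL-12, had 0 and 725 RIP reads and 0 and 391 Input reads, at least 162-fold and at least 63.8-fold higher. The RIP of 51 risen genes had no untreated read. Ptgs2, the inducible cyclooxygenase, had 2 untreated RIP reads and 3136 after LPS, and its Input went from 1 to 723 (9.45 with an interval of 7.82 to 11.08, and 7.47 with 5.47 to 9.47). Its difference of 1.98 (-0.60 to 4.56) has an interval that includes 0, because the untreated reads were so few.

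**Figure D2:**
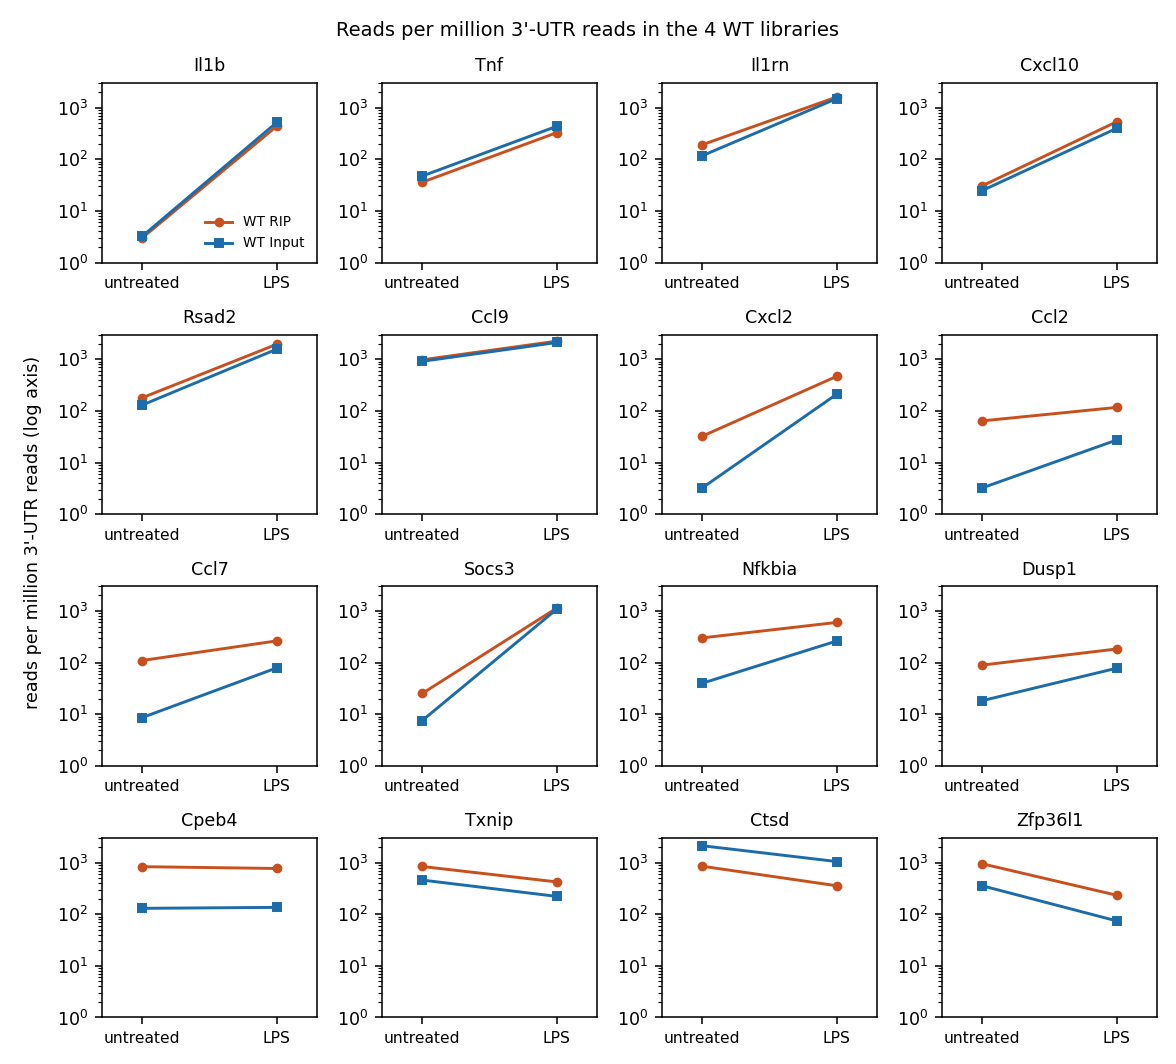
3′-UTR reads scaled to the total of each library, as CPM (log axis), in the untreated and LPS libraries of the WT RIP (orange circles) and WT Input (blue squares) for 16 genes, 1 library per point. The lines run together for Il1b, Tnf, Rsad2 and Ccl9, while for Cxcl2, Ccl2, Ccl7, Nfkbia and Dusp1 the RIP starts far above the Input and the gap narrows with LPS.

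The mRNAs that fell most in the RIP fell in the Input as well. St6gal1, a Golgi sialyltransferase, went from 423 to 5 RIP reads and from 209 to 1 Input reads, changes of -6.72 (-7.89 to -5.56) and -7.74 (-9.75 to -5.74). Arhgap19, a GTPase activating protein, went from 1076 to 16 RIP reads and from 556 to 14 Input reads (-6.57 and -6.24). Cxcr4, the receptor of CXCL12, went from 454 to 8 RIP reads and from 131 to 1 Input reads (-6.24, and -7.07 with an interval of -9.09 to -5.06). All 3 genes fell in both assays, and the intervals of their differences included 0.
The remaining genes of the 10 largest falls were the E3 ligase Rnf150 (-6.06), the urokinase gene Plau (-5.89), the condensin subunit Ncapg2 (-5.46), the mTOR inhibitor Deptor (-4.98), the plexin Plxna2 (-4.83), the cannabinoid receptor Cnr2 (-4.77) and 2810417H13Rik (-4.71). None of the 10 lagged or exceeded its Input, and for Plxna2 the Input had too few reads for that comparison.

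The change of the RIP followed that of the mRNA level over most genes. Of the 6386 genes, 91.3% had RIP and Input changes within 1 of each other, and the median difference was -0.08 with quartiles at -0.43 and 0.21. Across the 5308 genes whose 4 WT counts were all 10 or more, Spearman's rank correlation of the RIP and Input changes was 0.83. This is a description across genes, which are not independent replicates. Of the 905 genes that rose in the RIP, 795 passed the Input minimum, 662 of these (83.3%) rose in the Input and none fell. Of the 1447 that fell in the RIP, 1132 passed, 733 of these (64.8%) fell in the Input and none rose.

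Beside this, 54 genes exceeded their Input (0.846%) and 210 lagged it (3.29%). The balance of these calls moved with the scaling: 20.5% of the calls were exceeding on the 3′-UTR totals, against 90.0% on library totals, 45.1% with TMM and 44.2% with median-of-ratios factors. The 3 other scalings moved every difference upward, by 0.45, 0.14 and 0.13, which can remove lagging calls but no exceeding call. All 54 exceeding genes thus remained by construction, while 40, 123 and 125 of the 210 lagging genes remained. Any difference below is therefore relative to the median of -0.08.
To choose induced genes without using the WT Input, the 126 genes with an Input change over 2 in the KO culture were taken. Their median change was 2.40 in the WT RIP and 2.42 in the WT Input, with a median difference of -0.04. With the read minimum also set on the KO Input, the 39 genes with a change over 3 had a median difference of -0.03 and none lagged, and the 86 with a change from 2 to 3 had -0.08 and 1 lagged. Among genes with this many reads a strong induction was thus not accompanied by a median lag. The filter left out lagging genes with few untreated WT Input reads. Among these were Socs3 (KO Input change 6.75, 7 untreated WT Input reads), Cxcl2 (4.22 and 3) and Ccl7 (3.30 and 8).

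The gene lists below are described by their counts and medians, with no test. Beside these counts, 11.8% of all genes rose and 18.9% fell in the RIP, and 13.6% rose and 14.9% fell in the Input. Most measured chemokines and cytokines rose in the RIP. Of 8 CXC chemokines with enough RIP reads 6 rose and none fell, as did 6 of 8 in the Input. Of 9 CC chemokines 7 rose in the RIP, and of 15 secreted cytokines 12 did, with no fall in either list. Tnf went from 60 to 818 RIP reads and from 44 to 828 Input reads, changes of 3.17 in both. Cxcl10, a chemokine for T cells, went from 51 to 1334 RIP reads and from 23 to 757 Input reads (4.10 and 3.95). Ccl9, a chemokine of the CCR1 ligands, went from 1631 to 5612 RIP reads and from 850 to 4023 Input reads (1.20 and 1.21). For these 3 secreted factors the changes of WT RIP and WT Input differed by at most 0.15. Against the KO Input pair the differences were 0.10 (Tnf), -1.02 (Cxcl10, -1.74 to -0.30) and -0.12 (Ccl9).

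A few chemokines changed less in the RIP than in the Input. Ccl2, the monocyte chemoattractant MCP-1, went from 107 to 292 RIP reads and from 3 to 52 Input reads (0.86, and 2.70 with an interval of 1.23 to 4.16), a difference of -1.84 (-3.34 to -0.34). Its neighbour Ccl7, another ligand of CCR2, went from 183 to 657 RIP reads and from 8 to 150 Input reads (1.26 and 3.04), a difference of -1.78 (-2.78 to -0.78). Cxcl2, a neutrophil chemoattractant, went from 54 to 1169 RIP reads and from 3 to 401 Input reads (3.83, and 5.62 with an interval of 4.20 to 7.04), a difference of -1.79 (-3.26 to -0.32). Ccl7 was named after its value was seen, as a lagging member of its list. In all 3 the untreated RIP held many more reads than the untreated Input, and the untreated Input count was under 10. On library totals Ccl2 and Cxcl2 were no longer called, as their intervals then included 0, while Ccl7 was called under all 3 other scalings. Set against the KO Input pair in place of the WT Input, the differences were -1.45 (Ccl2), -2.04 (Ccl7) and -0.39 (Cxcl2), and the last was then not called. Over the CC chemokines the median difference was -0.56, with 5 of 8 members below the median of all genes, and over the CXC chemokines it was 0.42, with 2 of 8 below it. With the KO Input pair these medians were -0.81, with 6 of 8 below, and -0.18, with 3 of 6 below, so the sign for the CXC chemokines depended on the Input used.

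Interferon-stimulated genes, which encode antiviral proteins, rose nearly throughout. In the RIP 35 of the 39 listed genes rose, beside 11.8% of all genes, and in the Input 34, beside 13.6%. None of the 39 fell, lagged or exceeded. Some interferon-related genes outside the list departed in both directions. Among these Oas1b and Ifitm2 (difference 1.91) exceeded, while Trim21, Adar (-1.14) and Parp10 (-1.40) lagged. Oas1b and Trim21 are named below, and Ifitm2, Adar and Parp10 were named after their values were seen. Rsad2, the antiviral enzyme viperin, went from 300 to 4883 RIP reads and from 121 to 2987 Input reads (3.44 and 3.58). Cmpk2, its neighbour and partner, went from 109 to 1838 RIP reads and from 69 to 1124 Input reads (3.48 and 2.98). Ifit2 went from 154 to 2195 RIP reads and from 30 to 766 Input reads (3.24 and 3.60). The median difference over the list was 0.13 and its members lay on both sides of the median of all genes, with 15 of 39 below it.

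Enzymes of prostaglandin, nitric oxide and itaconate metabolism with their transporters and redox partners showed 12 rises and 2 falls among 15 members in the RIP, and 11 rises and 1 fall among 14 in the Input. Of all genes 11.8% rose and 18.9% fell in the RIP, and 13.6% and 14.9% did in the Input. None of the members lagged or exceeded. Sod2, the mitochondrial superoxide dismutase, went from 247 to 3926 RIP reads and from 133 to 2490 Input reads (3.40 and 3.19). The falls were those of Alox5ap (-1.45), which activates 5-lipoxygenase, and Lta4h (-1.30), which makes leukotriene B4, both of the leukotriene branch.

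Metabolic and antigen-handling genes rose in part, where 11.8% of all genes rose in the RIP and 13.6% in the Input. Of 24 glycolysis and hypoxia genes 11 rose in the RIP and none fell. Pfkfb3, which makes the activator of phosphofructokinase, went from 159 to 2926 RIP reads and from 95 to 2575 Input reads (3.61 and 3.72). Hif1a went from 239 to 1855 RIP reads and from 37 to 558 Input reads (2.37 and 2.85), and the glucose transporter Slc2a1 from 164 to 1217 and from 59 to 773 (2.30 and 2.66). One member lagged, Pfkl, the liver-type phosphofructokinase, with changes of 0.81 in the RIP and 1.92 in the Input. Of 16 antigen presentation and costimulation genes 11 rose in the RIP, such as Cd274 (PD-L1) from 153 to 2829 RIP reads and from 71 to 1844 Input reads (3.62 and 3.65). Of 28 proteasome subunits 7 rose in the RIP and 8 of 24 rose in the Input, among them the immunoproteasome subunits Psmb9 (1.99 and 1.72) and Psmb10 (1.72 and 1.84).

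Genes of the lysosome fell more often than they rose. Of 24 lysosome and phagocytosis genes 11 fell and 1 rose in the RIP, beside 18.9% and 11.8% of all genes. Of 25 in the Input 11 fell and 1 rose, beside 14.9% and 13.6%. The cathepsin gene Ctsd went from 1420 to 889 RIP reads and from 1977 to 1991 Input reads, which after scaling are falls of -1.26 and -1.02. Lipa, lysosomal acid lipase, went from 1553 to 641 RIP reads and from 1057 to 595 Input reads (-1.86 in both), and Psap, the saposin precursor, from 1557 to 946 and from 2034 to 1969 (-1.30 and -1.08). The riser was Ctsc (2.46 and 2.76), a peptidase that activates serine proteases. Falls just past 1, like that of Ctsd, depend on the scaling, since library totals raise every RIP change by 0.52.

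Of 24 macrophage identity genes 8 fell and 3 rose in the RIP, beside 18.9% and 11.8% of all genes, and 5 fell and 3 rose in the Input, beside 14.9% and 13.6%. Cebpa, a transcription factor of the myeloid lineage, went from 372 to 62 RIP reads and from 415 to 132 Input reads (-3.15 and -2.68). The scavenger receptor Msr1 rose, from 288 to 1951 RIP reads and from 75 to 642 Input reads (2.17 and 2.05). Lagging members of the list, which were named for that after their values were seen, were the receptors Fcgr2b, the inhibitory Fc receptor (2.19 and 3.72), and Trem2 (-2.79 and -1.58).

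Cell cycle genes fell more often than they rose. In the RIP 18 of 27 fell and 3 rose, beside 18.9% and 11.8% of all genes. In the Input 10 of 20 fell and 3 rose, beside 14.9% and 13.6%. Ccnd1, cyclin D1, went from 1234 to 538 RIP reads and from 540 to 229 Input reads (-1.78 and -2.26), although its region overlaps that of Oraov1. Ccnd2, cyclin D2, went the other way, from 22 to 1338 RIP reads and from 13 to 1494 Input reads (5.28 and 5.71), and the inhibitor Cdkn1a (p21) from 513 to 1800 and from 443 to 2045 (1.23 and 1.17). Cyclin D1 and D2 thus moved in opposite directions in both assays. The replication factor Pcna lagged, with 85 and 41 RIP reads and 8 and 16 Input reads.

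**Figure D3:**
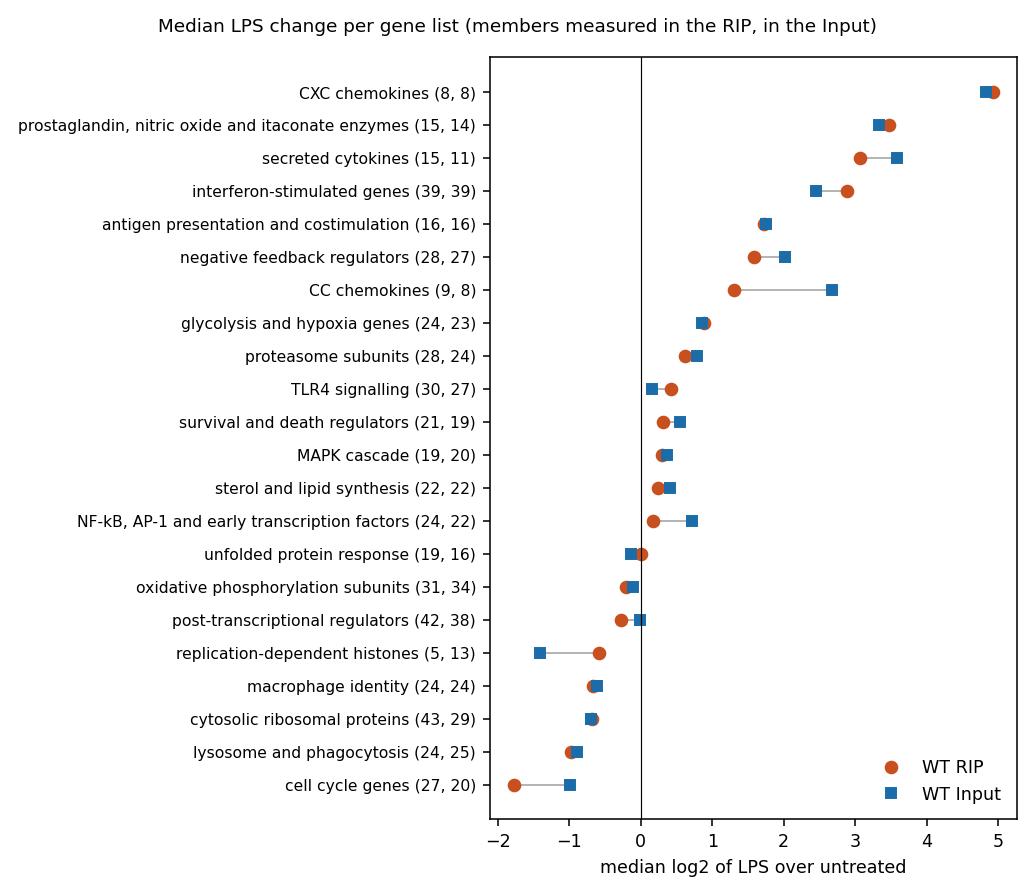
Median log2 change of LPS over untreated of 22 gene lists in the WT RIP (orange circles) and the WT Input (blue squares), with the number of members measured in each. Medians of the 2 assays lie close for most lists, with the CXC chemokines highest, the cell cycle genes lowest in the RIP, and the CC chemokines and replication-dependent histones furthest apart.

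Both directions occurred in most of the signalling, survival, synthesis and housekeeping lists, beside 11.8% of all genes rising and 18.9% falling in the RIP. Rises and falls in the RIP were 8 and 4 of 30 genes for TLR4 signalling, 4 and 1 of 19 for the MAPK cascade, 5 and 3 of 21 for survival and death regulators and 5 and 3 of 22 for sterol and lipid synthesis. For the unfolded protein response they were 0 and 3 of 19, for oxidative phosphorylation subunits 0 and 4 of 31, for cytosolic ribosomal proteins 0 and 12 of 43 and for replication-dependent histones 1 and 2 of 5. The TLR4 receptor mRNA itself went from 129 to 57 RIP reads and from 13 to 11 Input reads (-1.75 and -1.25), while its co-receptor Cd14 went from 92 to 479 and from 37 to 344 (1.79 and 2.15). Receptor and co-receptor thus went in opposite directions. Cflar, the caspase-8 inhibitor c-FLIP, went from 813 to 4674 RIP reads and from 220 to 2327 Input reads (1.94 and 2.37).

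Several inhibitors of the TLR4 response were among the lagging genes. Of 28 negative feedback regulators 17 rose and 2 fell in the RIP, beside 11.8% and 18.9% of all genes. Of 27 regulators in the Input 18 rose and 1 fell, beside 13.6% and 14.9%. Their median difference was -0.38, which is 0.30 below that of all genes, and 17 of 27 lay below the median of all genes. Against the KO Input pair 21 of 27 did. Of all genes that rose in the Input, 880 passed the RIP minimum and 63 of these lagged. The regulators that lagged were Nfkbia, Socs3 and Otulin, 3 of 27, beside 3.29% of all genes. The last, a linear deubiquitinase, was named after its value was seen and went from 49 to 21 RIP reads and from 14 to 20 Input reads. Its interval (-2.42 to -0.02) includes 0 under all 3 other scalings and that of Socs3 does so on library totals, so that those calls are lost there, while Nfkbia was called under all of them.

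Nfkbia encodes IκBα, the NF-κB inhibitor that NF-κB itself induces. Its region (mm10 chr12:55489411-55489921, minus strand, a 3′-UTR) had 502 RIP reads untreated and 1497 with LPS, and 37 and 498 Input reads. The RIP changed by 0.99 (0.85 to 1.14) and the Input by 2.68, so that the difference was -1.69 (-2.19 to -1.19). The untreated RIP thus stood well above the untreated Input, and the log2 ratio of RIP over Input went from 2.88 to 1.19. In the KO culture the RIP went from 60 to 564 reads and the Input from 50 to 396, with a difference of -0.47. The KO RIP also stood above its Input, at 128 against 37.7 CPM untreated and 647 against 264 CPM with LPS. In the WT these levels were 301 against 39.8 CPM and 601 against 262 CPM. With the KO Input pair in place of the WT Input the WT difference was -1.79.

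Socs3, the suppressor of cytokine signalling that blocks JAK kinases downstream of the IL-6 receptor, had 42 and 2839 RIP reads and 7 and 2056 Input reads. Its changes were 5.46 in the RIP and 6.98 in the Input, a difference of -1.51 (-2.60 to -0.42), which was -1.29 against the KO Input pair and 0.17 within the KO culture. Dusp1, the phosphatase of p38 and JNK, went from 149 to 458 RIP reads and from 17 to 148 Input reads (1.03 and 2.02). Its difference of -0.99 (-1.74 to -0.23) stayed just inside the limit of 1. Il1rn, the interleukin-1 receptor antagonist, went from 319 to 4014 RIP reads and from 109 to 2845 Input reads (3.07 and 3.66). Its difference was -0.60 (-0.92 to -0.27), and -1.35 (-1.67 to -1.04) against the KO Input pair. In the KO both Dusp1 and Il1rn exceeded their Input, by 1.18 and 1.35, from 7 and 15 untreated RIP reads.

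Other inhibitors neither lagged nor exceeded. Tnfaip3, the deubiquitinase A20, went from 107 to 1027 RIP reads and from 41 to 743 Input reads (2.67 and 3.12, difference -0.45). Zfp36, which encodes tristetraprolin, went from 474 to 928 RIP reads and from 178 to 595 Input reads (0.39 and 0.71, difference -0.32), with no call in either assay. Socs1 had only 2 untreated Input reads, with 21 and 593 RIP reads and 280 Input reads after LPS, and its difference of -1.35 (-3.10 to 0.41) has an interval that includes 0.
NF-κB, AP-1 and early transcription factors lay low in the difference, down to -2.07. None of them lagged or exceeded, as the interval included 0 wherever the difference was past the limit. Their median was -0.38, or 0.29 below that of all genes, with 18 of 22 below the median of all genes with either Input pair. Fosl2, an AP-1 subunit, went from 301 to 1402 RIP reads and from 183 to 1573 Input reads (1.63 and 2.07), Cebpb from 393 to 1164 and from 185 to 905 (0.98 and 1.25) and Klf6 from 1650 to 2726 and from 370 to 869 (0.14 and 0.20). In the RIP 6 of 24 rose and 4 fell, beside 11.8% and 18.9% of all genes. In the Input 10 of 22 rose and 2 fell, beside 13.6% and 14.9%.

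**Figure D4:**
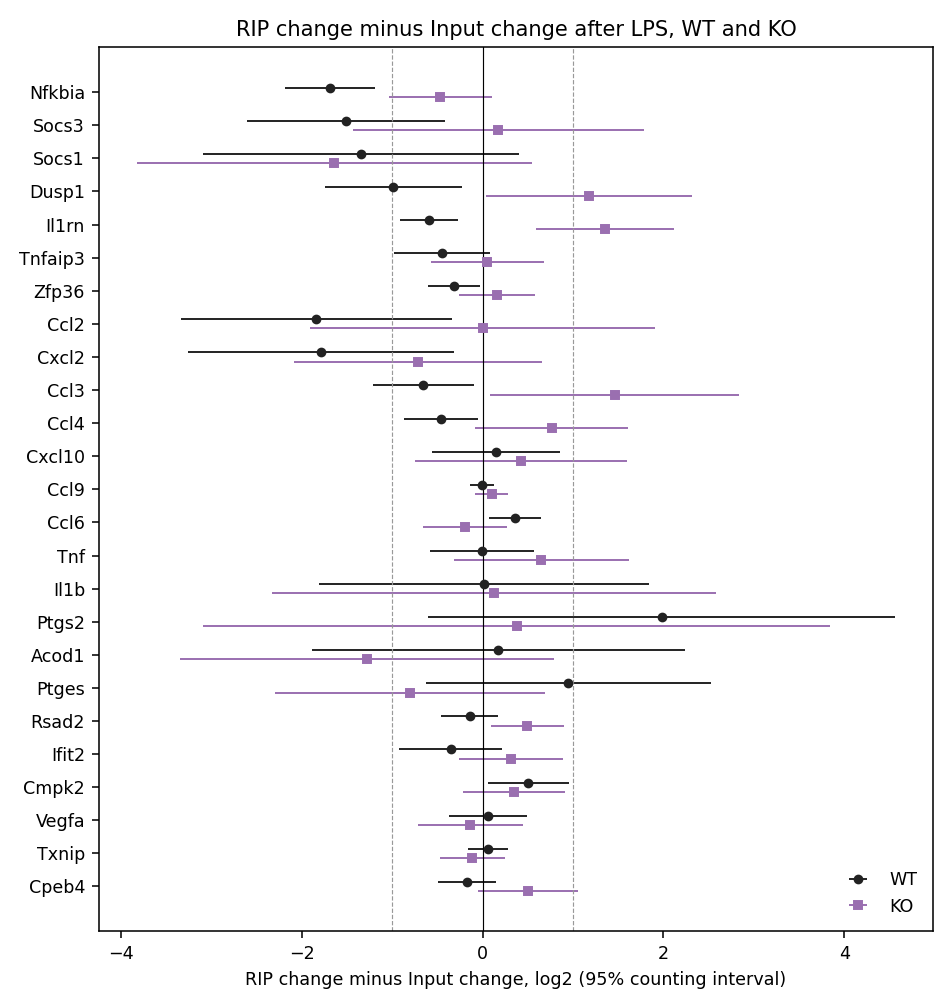
RIP change minus Input change after LPS on the log2 scale for 25 named genes in the WT (black circles) and KO (purple squares), with 95% counting intervals; the dashed lines mark the limit of 1. Nfkbia lies at -1.69 in the WT and -0.47 in the KO, Il1rn at -0.60 and 1.35, and Cpeb4, Vegfa and Txnip lie near 0 in the WT.

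Among regulators of mRNA fate, 2 of 42 rose and 5 fell in the RIP, where 11.8% of all genes rose and 18.9% fell. In the Input 4 of 38 rose and 5 fell, beside 13.6% and 14.9%. Cpeb4 itself (mm10 chr11:31931533-31935634, plus strand) had 1392 and 1920 RIP reads and 121 and 258 Input reads. Its scaled RIP level changed by -0.12 (-0.22 to -0.02) and its Input level by 0.06, a difference of -0.17. The change of Cpeb4 was thus close to the median of all genes in both assays, and the sign of its RIP change turns under all 3 other scalings. Zfp36l1 and Zfp36l2, relatives of tristetraprolin, fell, from 1584 to 582 RIP reads and from 331 to 141 Input reads (-2.02 and -2.26) and from 1400 to 329 and from 323 to 87 (-2.67 and -2.91). Igf2bp2, an mRNA-stabilising protein, rose from 93 to 475 RIP reads and from 20 to 148 Input reads (1.76 and 1.80), and the deadenylase subunit Cnot3 lagged (-0.44 and 1.21). The region of Cnot3 overlaps that of Leng1, which lagged as well (-0.30 and 1.37), so the reads may belong to either gene.

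The study named Txnip and Vegfa as CPEB4 targets known before and Gapdh as a control. It also reported that Dusp1, Il1rn, Socs1, Socs3, Zfp36 and Tnfaip3, described above, came down with CPEB4. Txnip, the thioredoxin-interacting protein, went from 1403 to 1055 RIP reads and from 427 to 421 Input reads (-0.99 and -1.05). Vegfa, the vascular growth factor, went from 323 to 548 RIP reads and from 77 to 172 Input reads (0.18 and 0.12). Both had a difference of 0.06, with no lag or excess in either direction. Gapdh had 2 and 9 RIP reads, under the minimum, and 13 and 55 Input reads. Of the genes named in this paragraph only Socs3 lagged. The list of genes named by the study also held Ccl2, Cxcl2, Cxcl1 and Ptgs2, which it described when comparing macrophages lacking CPEB4 or tristetraprolin. Of the 13 genes on the list that could be compared, 3 lagged, beside 3.29% of all genes. They were Socs3, Ccl2 and Cxcl2, and all 3 calls are lost on library totals. The median difference of the 13 was -0.45.

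The lagging genes had fewer reads than most, with a median of 162 over the 4 WT libraries against 299 for all genes compared. Where all 4 WT counts were 10 or more, the lowest differences were those of Pitpnm1 (-2.12), Bet1l (-2.01), Acvrl1 (-1.90), Tbc1d8 (-1.88), Rrbp1 (-1.87), Lsm4 (-1.83), Il21r (-1.80), AA474408 (-1.76), Gm9843 (-1.71) and Nfkbia. Rrbp1, a ribosome-binding protein of the endoplasmic reticulum, had 28 and 29 RIP reads and 22 and 118 Input reads, and Acvrl1, a receptor of the TGF-β family, 18 and 17 RIP reads and 23 and 115 Input reads. In both the Input rose, while the RIP was within the limit. Il21r, the IL-21 receptor chain, had 81 and 49 RIP reads and 19 and 57 Input reads. The region of Tbc1d8 overlaps that of Rpl31, and 35 of the 210 lagging genes overlap a region of another symbol, against 626 of all 6386. Of these genes 18 had 3 or fewer reads in a WT library. The median of the 210 was -0.85 in the RIP and 0.53 in the Input. Of the 210, 11 rose in the RIP all the same, namely Ccl7, Clec5a, Cxcl2, Fcgr2b, Kdm6b, Lilrb4a, Malt1, Mmp13, Psd, Socs3 and Trim21, and they are named here because the set is small. The region of Psd overlaps that of Nfkb2, so its reads may belong to either gene. Mmp13, a collagenase, went from 56 to 2276 RIP reads and from 2 to 529 Input reads.

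Of the 54 exceeding genes, 26 fell in the Input and 6 fell in the RIP. Their median change was 0.40 in the RIP and -0.98 in the Input. Rell1, of the RELT receptor family, went from 405 to 162 RIP reads and from 99 to 16 Input reads (-1.90 and -3.59), a difference of 1.69 (0.90 to 2.48). Rrm2b, the p53-inducible ribonucleotide reductase subunit, had 54 and 83 RIP reads and 16 and 11 Input reads (0.03 and -1.53). Lig3, DNA ligase III, whose region overlaps Rffl, had 38 and 205 RIP reads and 24 and 52 Input reads (1.82 and 0.05). Rell1 fell in both assays and fell less in the RIP, while Rrm2b fell in the Input alone and Lig3 rose in the RIP alone. Where all 4 WT counts were 10 or more, the other genes with the largest differences were Pde6d (1.90), Rnf217 (1.77), Tars (1.72), Mrpl2 (1.62), Gm21970 (1.59), Cd5l (1.57) and Taf5l (1.55). Taf5l, a subunit of the SAGA-type acetyltransferase complexes, had 81 and 87 RIP reads and 33 and 16 Input reads, and its difference turned to -0.39 with the KO Input pair.
Of the 54, 12 rose in the RIP. Among these Tlr3, the receptor of double-stranded RNA, went from 9 to 127 RIP reads and from 6 to 41 Input reads (3.10 and 1.55, difference 1.54 with an interval from 0.06 to 3.02), and Oas1b, of the 2′-5′ oligoadenylate synthetases, from 5 to 85 and from 9 to 50 (3.26 and 1.32). Both were named after their values were seen, and their counts before LPS were under 10.

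The culture labelled CPEB4 KO gives the background of the antibody. In it 82 of 5414 genes exceeded (1.51%) and 97 lagged (1.79%), with a median difference of -0.01. Of the 210 genes lagging in the WT, 157 could be read in the KO, where 8 lagged, 3 exceeded and the median difference was -0.13. Of the 54 exceeding genes 38 could be read, none exceeded and 1 lagged. Over 4093 genes whose 8 counts were all 10 or more, the rank correlation of the RIP and Input changes was 0.85 in the WT and 0.84 in the KO, while the rank correlation of the WT and KO differences was 0.09. The RIP thus followed the Input alike in both cultures, and the genes that departed from it were mostly not shared. The KO RIP held 467696 (untreated) and 871482 (LPS) 3′-UTR reads, against 1665914 and 2492300 in the WT RIP. This lower depth limits what the few shared calls and the correlation of 0.09 can say. Whether the departures differ between the genotypes was not tested, as 1 library per condition does not allow it.
Since the WT Input enters every difference, the WT RIP change was also set against the KO Input change, an alternative chosen after seeing the data. Of 6476 genes 130 then exceeded (2.01%) and 181 lagged (2.79%). The same WT RIP change enters both differences, so that calls shared between them are partly built in. Of the 210 lagging genes 204 had enough KO Input reads, 181 of these had a difference below 0 and 55 lagged again. Over all genes compared, 6241 had enough KO Input reads, 3215 of these had a difference below 0 and 177 lagged. Of the 54 exceeding genes 12 exceeded again, beside 127 of the 6241. Most single calls thus depended on which Input was used, with Nfkbia, Ccl7, Ccl2 and Socs3 past -1 with both.

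The lagging genes had GC-richer and shorter 3′-UTRs than the genes compared. Their median GC content was 48.6%, against 45.6% over all 6386 and 43.0% over the exceeding genes, and their median length was 1072.5 bases against 1471.5 and 1159. A CPE was predicted by the authors in 21.4% of the lagging, 40.7% of the exceeding and 40.2% of all genes. At least 2 AUUUA motifs were found in 39.5% of the lagging, 57.4% of the exceeding and 56.7% of all genes, and UUUUAU in 44.3%, 72.2% and 63.2%. Motifs were counted on the transcript strand and are more frequent in long and AT-rich regions.

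GC content moved with the change of the WT RIP. From the lowest to the highest quintile of GC content the median change of the WT RIP went 0.06, -0.11, -0.19, -0.29 and -0.41. Those of the WT Input were 0.12, -0.09, -0.10, -0.12 and -0.08. The KO RIP, with medians from -0.18 to -0.07, and the KO Input, from -0.18 to -0.09, had no such slope. The median difference was -0.03 in the lowest and -0.26 in the highest quintile, and 2.19% and 6.18% of the genes lagged. Genes with a predicted CPE had a median difference of -0.03 (2565 genes) and those without of -0.13 (3821 genes). From the lowest to the highest quintile of GC content the median difference was -0.05, 0.03, -0.03, -0.10 and -0.24 with a CPE and -0.01, -0.06, -0.06, -0.13 and -0.27 without. In the same order 1.43%, 1.75%, 2.32%, 1.48% and 2.16% of the genes with a CPE lagged, and 3.66%, 2.53%, 3.69%, 3.30% and 6.86% of those without. The share that lagged was thus lower with a CPE in each of the 5 quintiles, while the median was lower with a CPE in the lowest quintile and higher in the other 4. With the difference centred within each quintile, an alternative chosen after seeing the data, 175 of the 210 lagging and 47 of the 54 exceeding genes remained. The part that base composition plays in the lag was not tested beyond these values.

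**Figure D5:**
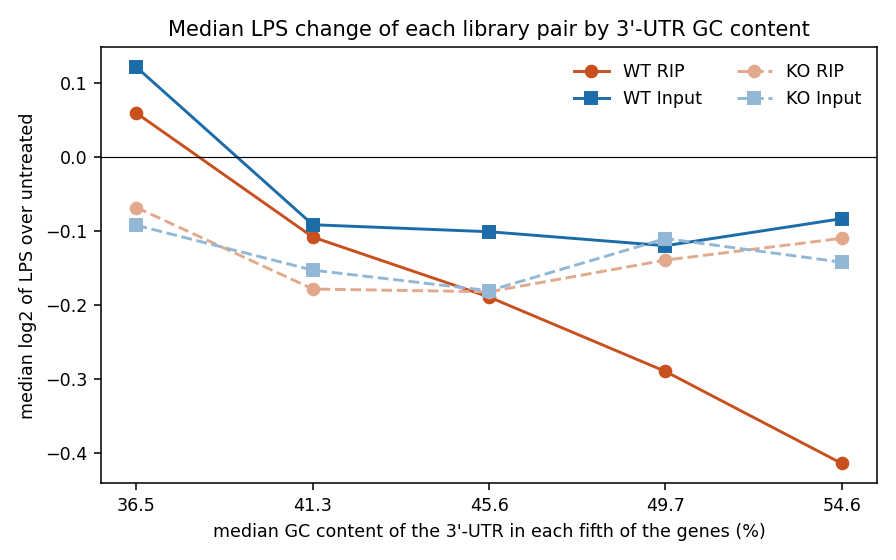
Median log2 change of LPS over untreated in quintiles of the 6386 genes by 3′-UTR GC content (horizontal axis, median GC of each quintile in percent) for the WT RIP, WT Input, KO RIP and KO Input, 1 library pair per line. The WT RIP runs from 0.06 to -0.41, while the other 3 lines stay between -0.18 and 0.12.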

How the data were processed

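According to the submitters' processing notes and the study's methods, the authors aligned reads to mm10 with Bowtie2 2.2.2, called peaks with MACS 1.4.2 and counted deduplicated reads over Ensembl 3′-UTRs. The deposited read counts are not normalised. The deposited RPKM values divide them by region length and library total, and served only to recover that total. The authors' fold changes, p-values and peak scores in the same tables were not used. The deposited CPE prediction was used per region.

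Of 31117 regions, 495 had no symbol and were left out. Reads of overlapping isoforms are counted in several regions. One region per symbol was kept (most reads over 8 columns), each column was scaled to its sum over the 30622 regions with a symbol, and 1 read was added. Intervals of 95% are normal intervals of log ratios from the reads. They are not adjusted over genes and cover counting error only, and reads without molecular identifiers are not independent molecules. Genes with under 20 reads in a pair were not compared. Regions were matched to GRCm38.p6, the same build, for base composition and motifs, and all 78 regions with a sequence in the study's supplement were identical to it. Named genes were the 10 largest rises and falls (at least 50 RIP reads, over 3 in each), the 10 largest and lowest differences (at least 10 reads in each WT library), the genes the study named, up to 4 most-read members of each list, and Cpeb4, of which some are not reported here. Members and lists were chosen with earlier results of these data known. Alternatives were library totals, TMM (edgeR 4.0.16) and median-of-ratios (DESeq2 1.42.0) factors, 0.1 reads added, other read minimums, region rules and limits. The code was checked on simulated data. Python 3.11.15, pandas 2.3.3, numpy 2.4.6, scipy 1.17.1, matplotlib 3.10.9 and R 4.3.3 were used.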

Additional observations from a re-analysis of the deposited data

How the results depend on the processing

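No paired analysis was possible because there is 1 library per condition, and the numbers 76 and 73 name the WT and the KO culture. On library totals 1717 genes rose and 741 fell in the RIP, 361 exceeded and 40 lagged, and the median difference of the genes induced in the KO Input became 0.42. TMM gave 101 exceeding and 123 lagging genes, and median-of-ratios factors 99 and 125. With at least 50 reads in each pair 939 genes fell in the RIP and 630 in the Input, 24 exceeded and 104 lagged, and the rank correlation was 0.88. Without a read minimum 91 exceeded and the rank correlation was 0.60. Reads summed over distinct regions gave 96 exceeding and 350 lagging genes. Without the interval 152 exceeded and 404 lagged. With a limit of 1.5-fold 2197 genes fell in the RIP and 1571 in the Input, 127 exceeded and 395 lagged. The KO Input pair, added after seeing the data, gave 130 exceeding genes. It turned the difference of Taf5l to -0.39 and that of Slc7a11 to 1.67. Other counts stayed within 1.5 times of those reported. The scaling acts on all genes alike, while the cause of the other shifts was not tested. The untreated WT Input held the fewest reads of the 4 WT libraries, which limits the differences.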
